A study of Homo sapiens and Mus musculus with 30 samples.

Results

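CLU, GPRC5A, CAV1, VIM and TNNT1 are 5 human genes chosen for a graded total RNA change with LIN28B in HEK293A cells. Total RNA was lower with more LIN28B for the first 4 and higher for TNNT1, though only CLU kept its direction at each successive level. All 5 genes were found by gene symbol among the 11342 genes of the deposited human table. They are also among the 57820 genes of the table for cells given let-7a. The members were chosen by their total RNA values in HEK293A, so those values are given as a description and without a test. In the let-7a table they carry the Ensembl identifiers ENSG00000120885.15, ENSG00000013588.5, ENSG00000105974.7, ENSG00000026025.9 and ENSG00000105048.12, in the order named. Their RNA on polysomes and the mouse genes of the same symbols in another cell line were not part of the rule for the choice and were tested. The choice was made with earlier results of these data known, so these tests are not on unseen data.

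LIN28B binds RNA, stops the processing of let-7 precursors into mature microRNAs, and also contacts many messenger RNAs. MicroRNAs of the let-7 family pair through a short seed with target RNAs and lower their translation and stability. Clusterin, encoded by CLU, is a secreted chaperone that binds unfolded proteins outside the cell. GPRC5A encodes an orphan receptor of the cell surface first known as a gene induced by retinoic acid. Caveolin-1 (CAV1) is the coat protein of caveolae, small pits of the plasma membrane, and vimentin (VIM) forms the intermediate filaments of mesenchymal cells. TNNT1 encodes the troponin T of slow skeletal muscle, a part of the calcium switch of the thin filament.

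HEK293A cells derive from human embryonic kidney, and NIH3T3 cells are mouse embryonic fibroblasts. Each was set at 5 levels of LIN28B, X0 to X4, grown in DMEM with 10% fetal bovine serum, with the LIN28B transgene induced by doxycycline at 10 ng/ml. X0 is the LIN28B knockout in the series' design and X4 carries the most LIN28B, while the titles of the NIH3T3 samples name no knockout. Every level gave 1 total RNA library and 1 polysome RNA library, the latter from RNA bound by ribosomes, and HEK293A X0 cells that received mature let-7a at 10 nM gave 1 more library of each fraction. A further 8 of the 30 samples held small RNA from HEK293A. The sources used here do not say whether X0 cells also received doxycycline, whether untransfected cells received the transfection reagent, whether each level is 1 clone or which promoter drives the transgene.

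The unit is RPKM, a read count scaled by gene length and by library size, and intervals at 95% were computed from the reads behind each value and cover counting error only. Between 37654587 and 56002258 reads were recovered per HEK293A library of total RNA and between 9085007 and 14592558 per polysome library. In NIH3T3 the ranges were 16071511 to 25002489 and 15929522 to 20818681, and the let-7a libraries held 35083529 reads of total and 7387339 of polysome RNA. LIN28B itself stood at 3.60, 23.0, 33.4, 81.2 and 208 RPKM in HEK293A total RNA from X0 to X4, in the order of the labels, and at 1.41 RPKM in X0 cells with let-7a. Of 7 markers of HEK293 cells the human table lists 4, among them KRT8 at 45.4 to 54.9 RPKM and KRT18 at 48.4 to 57.2 RPKM in total RNA. It lists none of the 4 hepatocyte, 5 muscle and 3 blood markers, and 1 of 5 markers of pluripotent cells (SOX2). In bulk samples such as these, fewer cells making a transcript and less of it per cell cannot be told apart.

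The RefSeq promoter table held 3 of the 5 genes, CAV1, VIM and TNNT1, and windows of these 3 are shown. In total RNA CAV1 and VIM were lower and TNNT1 higher at X4 than at X0. The coordinates are those of GRCh38.p14, while the submitters' processing notes name hg19 for the expression values, so that the match is by symbol. Each window runs from 250 bases before to 50 bases after an annotated start, and capitals mark matches, on either strand, to the TATA box (TATAAA) or the GC box (GGGCGG), none of which overlap. CAV1 has 3 such windows and the first is printed. The mature let-7a that was transfected is shown with its seed, bases 2 to 8, in capitals.
let-7a: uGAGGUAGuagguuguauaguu
CAV1 (chr7:116524759-116525058, + strand): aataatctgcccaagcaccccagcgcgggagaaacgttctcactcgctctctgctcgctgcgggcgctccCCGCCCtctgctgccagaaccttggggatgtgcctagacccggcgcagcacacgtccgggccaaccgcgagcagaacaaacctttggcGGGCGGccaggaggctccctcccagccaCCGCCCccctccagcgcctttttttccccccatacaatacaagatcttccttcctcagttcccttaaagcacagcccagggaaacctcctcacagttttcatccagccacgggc
VIM (chr10:17227991-17228290, + strand): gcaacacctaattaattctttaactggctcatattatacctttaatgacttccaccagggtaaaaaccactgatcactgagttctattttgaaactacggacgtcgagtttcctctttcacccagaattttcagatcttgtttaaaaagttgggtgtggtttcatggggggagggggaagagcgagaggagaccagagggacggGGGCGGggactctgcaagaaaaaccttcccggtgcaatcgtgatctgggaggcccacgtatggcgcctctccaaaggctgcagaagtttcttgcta
TNNT1 (chr19:55149157-55149456, − strand): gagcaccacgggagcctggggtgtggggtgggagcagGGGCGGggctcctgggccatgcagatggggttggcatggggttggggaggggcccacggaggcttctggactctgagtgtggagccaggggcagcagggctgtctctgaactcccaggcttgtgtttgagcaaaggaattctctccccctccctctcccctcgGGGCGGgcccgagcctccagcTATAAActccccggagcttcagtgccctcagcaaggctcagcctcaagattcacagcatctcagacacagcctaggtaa

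The GC box occurs 3 times in the CAV1 window, once in that of VIM and in 2 places in that of TNNT1, and it is present in 44.9% of all 35097 promoter windows of this length. Of the 3 printed windows only that of TNNT1 has the TATA box, which 11.5% of all windows hold. VIM and TNNT1 had 1 window each, and any other start of these genes was not examined. None of the 3 printed windows has the letters CCAAT (34.6% of all windows), TGANTCA (7.71%), AGGTCA (13.8%) or CACGTG (7.25%). The GC content was 62.3% for CAV1, 48.0% for VIM and 64.0% for TNNT1, against a median of 58.7% over all windows. These matches describe letters only and say nothing of whether a factor binds there.

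In HEK293A total RNA the 4 genes that were lower with more LIN28B ended 1.66-fold to 2.95-fold below X0 at X4, and TNNT1 ended 2.75-fold above. CLU was at 189, 112, 105, 83.8 and 64.0 RPKM from X0 to X4. No other member was lower or higher at each successive level in total RNA, and no neighbouring pair of CLU levels overlapped within counting error. At X4 CLU was 2.95-fold below X0 (95% interval 2.9 to 3.0). Of all 11342 genes, 3.2% were lower at each successive level and 3.71% higher.

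GPRC5A was at 15.5, 7.57, 7.07, 4.94 and 5.60 RPKM in total RNA from X0 to X4. Its lowest level was X3 and not X4, its X1 and X2 values overlapped within counting error, and 70.9% of its log2 change to X4 was already present at X1. X4 was 2.76-fold below X0 (2.62 to 2.91). CAV1 was at 23.9, 15.8, 14.2, 11.1 and 11.3 RPKM, with X3 and X4 not distinguishable by counting error. X4 was 2.12-fold below X0 (2.01 to 2.24), and 55.7% of the log2 change was present at X1.

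VIM, one of the more abundant of the 5, was at 171, 126, 127, 120 and 104 RPKM in total RNA. Its X1 and X2 levels overlapped, and X4 was 1.66-fold below X0 (1.63 to 1.68), the smallest difference of the 5. VIM lies beside the antisense gene VIM-AS1, listed at 2.30 to 2.85 RPKM in the same libraries. The strand setting of the counting is not given, and without strand the reads of such a pair cannot be told apart.

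TNNT1 was at 5.35, 8.50, 8.40, 11.4 and 14.7 RPKM in total RNA, from 469 reads at X0 to 1385 reads at X4. X1 and X2 overlapped and the other levels stood in the order of LIN28B. X4 was 2.75-fold above X0 (2.48 to 3.06).

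**Figure D1:**
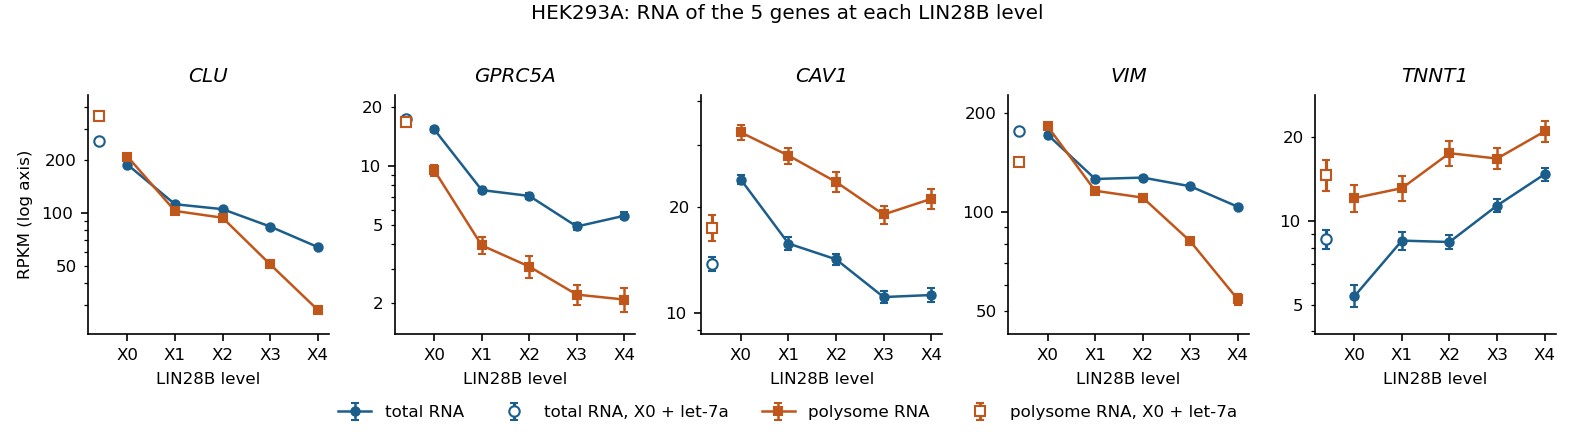
RPKM (log axis) of the 5 genes in HEK293A total RNA (blue circles) and polysome RNA (orange squares) at LIN28B levels X0 to X4, with open symbols for X0 cells given let-7a and bars for the 95% counting interval of each single library. CLU runs from 189 to 64.0 RPKM in total RNA but from 210 to 28.1 RPKM on polysomes. CAV1 and TNNT1 stay higher on polysomes than in total RNA at every level.

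A line through log2(RPKM + 0.5) over the 5 levels gave total RNA slopes per level of −0.35 (SE 0.04) for CLU, −0.33 (0.06) for GPRC5A, −0.26 (0.04) for CAV1, −0.15 (0.03) for VIM and 0.32 (0.03) for TNNT1. Without the X0 library the slopes of GPRC5A and CAV1 were −0.17 each and that of VIM was −0.09. The median slope of all genes was 0.00, and limma called 1.48% of genes up and 0.758% down at an adjusted p under 0.05. No gene had a lower slope than CLU, 0.511% of genes had a lower slope than VIM, and 99.9% had a lower slope than TNNT1. The choice of the members fixes these ranks. No threshold on the slope was part of the choice.

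Polysome RNA, which the choice did not use, was lower with more LIN28B for the same 4 genes and higher for TNNT1. Both fractions come from the same levels X0 to X4, so this shared direction is not independent of the choice. CLU was at 210, 103, 94.0, 51.1 and 28.1 RPKM on polysomes from X0 to X4, a 7.46-fold difference between the ends (7.13 to 7.81). All 5 levels of CLU stood apart within counting error. CLU fell by 0.68 log2 units per level (SE 0.06, limma adjusted p = 0.00281), the lowest slope of all 10428 genes tested.

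GPRC5A was at 9.57, 3.95, 3.08, 2.22 and 2.09 RPKM on polysomes, from 999 reads at X0 to 194 reads at X4. X3 and X4 overlapped, and the ends differed 4.57-fold (3.92 to 5.34). Its slope was −0.46 (SE 0.08, limma adjusted p = 0.00316), with 0.153% of genes lower. VIM was at 182, 116, 110, 81.3 and 54.2 RPKM, lower at each successive level although X1 and X2 overlapped within counting error. The ends differed 3.36-fold (3.22 to 3.49), and the slope was −0.40 (SE 0.05, limma adjusted p = 0.00281), with 1.32% of genes lower. CLU, GPRC5A and VIM were lower on polysomes at each successive level, as were 15.4% of all genes, while TNNT1 was not higher at each successive level, as 6.26% of genes were.

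CAV1 and TNNT1 had smaller polysome slopes. CAV1 was at 32.5, 28.0, 23.6, 19.1 and 21.1 RPKM, and X4 overlapped both X3 and X2. The ends differed 1.54-fold (1.42 to 1.67). CAV1 fell by 0.18 per level (SE 0.05, limma adjusted p = 0.0148), and 34.7% of genes had a lower slope. TNNT1 was at 12.1, 13.1, 17.6, 16.8 and 21.0 RPKM, from 325 reads at X0 to 502 at X4. X0 and X1 overlapped, as did X2 with X3 and with X4, and X4 was 1.74-fold above X0 (1.51 to 2.00). TNNT1 rose by 0.19 per level (SE 0.05, limma adjusted p = 0.0105), and 84.3% of genes had a lower slope.

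All 5 members thus passed the test on polysomes, 4 down and 1 up, where 61.1% of the 10428 genes tested were called, 39.3% down and 21.7% up. With most genes called, a call alone sets a member little apart, and the size of the slope places CLU, GPRC5A and VIM at the low end but CAV1 and TNNT1 inside the bulk of the genes. The median slope of all genes on polysomes was −0.07, and after centring each library on a trimmed mean the calls were 3116 up and 3037 down in place of 2267 up and 4101 down. CAV1 then missed the threshold, with a slope of −0.12 (limma adjusted p = 0.0686), as it did with edgeR (adjusted p = 0.0704) and without the X3 library (limma adjusted p = 0.0609). Without the X0 library, or without the X4 library, limma called 0 genes and 0 members. Unadjusted p-values under 0.05 then remained for 4364 genes and 4 members without X0 and for 4016 genes and 5 members without X4, and each member's slope kept its sign. The GPRC5A slope was −0.27 without X0.

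**Figure D2:**
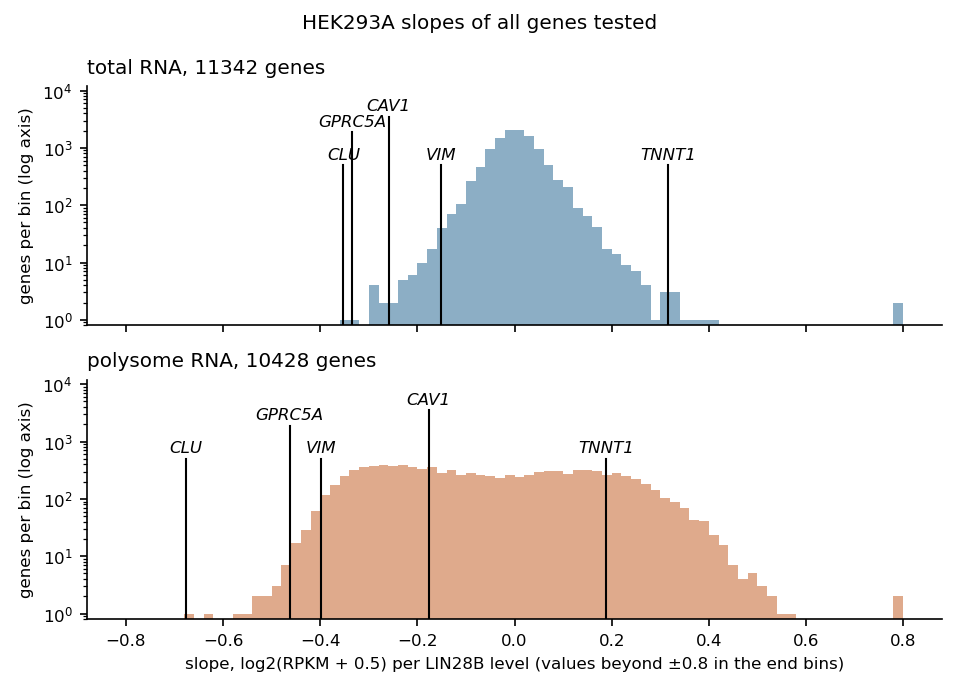
Number of genes (log axis) by slope per LIN28B level in HEK293A total RNA (11342 genes) and polysome RNA (10428 genes), with vertical lines at the 5 genes. The polysome slopes spread more widely than those of total RNA, with CLU at −0.68 at the low edge and CAV1 (−0.18) and TNNT1 (0.19) inside the bulk.

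Polysome RNA relative to total RNA, taken as log2 polysome RNA minus log2 total RNA (occupancy), contains the total RNA that chose the members and is given without a test. Occupancy is a log ratio of separately scaled libraries, not the share of a transcript that is on ribosomes. The median occupancy of all genes was −0.28 at X0 and −0.63 at X4, a difference of −0.36. CLU occupancy was 0.15, −0.13, −0.16, −0.71 and −1.17 from X0 to X4, so that polysome RNA was lower by 1.33 log2 units more than total RNA. VIM occupancy was 0.08, −0.12, −0.20, −0.55 and −0.93, a change of −1.01. Both were lower at each successive level and both changed by more than the median gene.

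GPRC5A occupancy was −0.67, −0.86, −1.08, −1.0 and −1.24, a change of −0.57 between the ends. CAV1 occupancy was 0.44, 0.81, 0.71, 0.75 and 0.88, a change of 0.44 and opposite in sign to that of the median gene. Most of the CAV1 change lay between X0 and X1, and without X0 its occupancy slope was 0.02. TNNT1 occupancy was 1.11, 0.60, 1.02, 0.54 and 0.50, a change of −0.61 with no steady order. Before centring, the gene with more total RNA thus had a smaller relative rise on polysomes, and CAV1 a smaller relative loss. After each library was centred on its trimmed mean, the median occupancy slope per level was −0.01 in place of −0.07. The slope was then −0.06 for TNNT1 (SE 0.08) and −0.06 for GPRC5A (SE 0.03), each in place of −0.13. It was −0.26 for CLU, −0.18 for VIM and 0.15 for CAV1. The fall of TNNT1 occupancy was thus within its SE after centring.

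With let-7a, which LIN28B keeps from maturing, HEK293A X0 cells differed from untransfected X0 cells in a way that was not the same for the 5 genes. These are single libraries, so there is no test, and the untransfected X0 libraries are the same ones that enter the slopes above. CAV1 was at 13.8 RPKM with let-7a against 23.9 without in total RNA, 1.73-fold lower (log2 difference −0.77, counting interval ± 0.08). On polysomes CAV1 was at 17.5 against 32.5 RPKM, 1.86-fold lower (−0.88 ± 0.14). CAV1 was the one member past 1.5-fold down, in both fractions, as were 8.32% of 11305 genes in total RNA and 15.4% of 10874 genes on polysomes.

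CLU was at 256 against 189 RPKM in total RNA (0.44 ± 0.02) and at 355 against 210 RPKM on polysomes (0.76 ± 0.03, 1.69-fold higher). GPRC5A was at 17.5 against 15.5 RPKM in total RNA (0.18 ± 0.06) and at 16.8 against 9.57 RPKM on polysomes (0.79 ± 0.12, 1.76-fold higher). For these 2 genes the X0 cells with let-7a stood above untransfected X0 and so further from X4. On polysomes 26.9% of genes were past 1.5-fold up. The median of all genes there was shifted by 0.14. After centring CLU stood at 0.56, below 1.5-fold, and GPRC5A at 0.59, just above it. The genes past 1.5-fold were then 2066 up and 2476 down in place of 2923 up and 1673 down.

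VIM was at 176 against 171 RPKM in total RNA (0.04 ± 0.02) and at 142 against 182 RPKM on polysomes, 1.28-fold lower (−0.35 ± 0.05), or −0.55 after centring. TNNT1 was at 8.59 against 5.35 RPKM in total RNA, 1.60-fold higher (0.63 ± 0.17), where 9.62% of genes were past 1.5-fold up. On polysomes it was at 14.7 against 12.1 RPKM (0.27 ± 0.24), and centring took that to 0.07, within its counting interval. TNNT1 total RNA was therefore higher than in untransfected X0 both with let-7a and with more LIN28B. CAV1 total RNA was lower than in untransfected X0 in both cases. The let-7a total RNA library also held less KRT8 (18.1 RPKM) and KRT18 (23.2 RPKM) than any untransfected one, and the part of this in the members' differences was not tested.

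**Figure D3:**
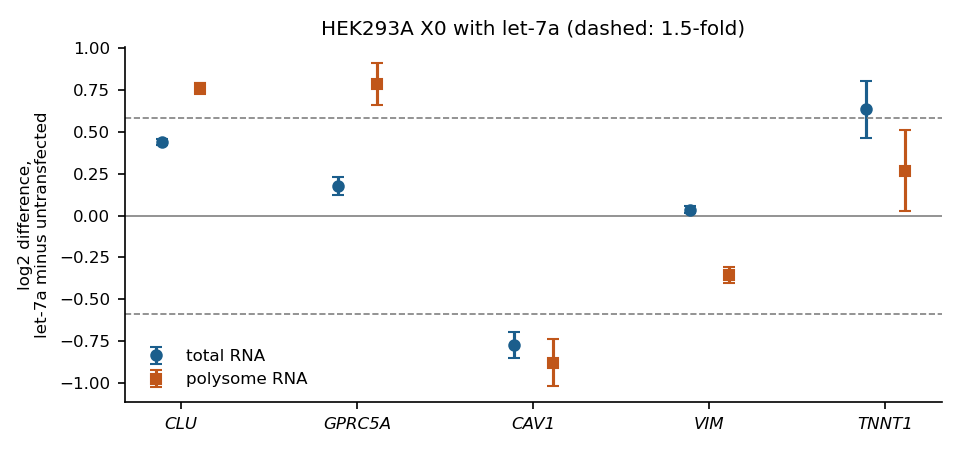
Difference in log2(RPKM + 0.5) between HEK293A X0 cells with and without let-7a for the 5 genes, in total RNA (circles) and polysome RNA (squares), with bars for the 95% counting interval and dashed lines at 1.5-fold. The values are without centring. CAV1 lies below the lower line in both fractions (−0.77 and −0.88), and CLU and GPRC5A lie above the upper line on polysomes (0.76 and 0.79).

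All 5 symbols have a mouse gene among the 41128 of the NIH3T3 table, and there Clu was lowest at X0, where human CLU was highest. Clu was at 3.82, 11.9, 10.5, 12.1 and 13.1 RPKM in total RNA and at 8.30, 22.5, 21.1, 17.9 and 25.6 RPKM on polysomes from X0 to X4. X0 was the lowest library in both fractions, and in total RNA each of X1 to X4 overlapped its neighbours in level within counting error, with 91.6% of the log2 change present at X1. X4 was 3.44-fold above X0 in total RNA (3.04 to 3.90) and 3.08-fold above it on polysomes (2.80 to 3.39).

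Gprc5a was highest at X4, at 10.4, 13.4, 13.6, 14.2 and 23.5 RPKM in total RNA and 19.5, 25, 22.5, 21.3 and 34.0 RPKM on polysomes. X4 stood apart from the other levels in both fractions, 2.25-fold above X0 in total RNA (2.03 to 2.50) and 1.75-fold on polysomes (1.60 to 1.91). In total RNA Gprc5a was higher at each successive level, as were 3.81% of genes, though X2 overlapped X1 and X3 within counting error. On polysomes none of the mouse genes was higher at each successive level, as 1.43% of genes were.

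Cav1 and Vim were abundant in these fibroblasts and highest at X0. Cav1 was at 214, 68.4, 53.7, 80.7 and 89.2 RPKM in total RNA and at 352, 117, 188, 255 and 205 RPKM on polysomes. Vim was at 2994, 1430, 1468, 1498 and 1221 RPKM in total RNA and at 1041, 668, 693, 708 and 543 RPKM on polysomes. Both were lower at X1 than at X0 and showed no further steady order, with Cav1 above its X1 level at X3 and X4. Tnnt1 was near 0, with 1 to 9 reads in a total RNA library and 3 to 7 reads in a polysome library, and was not tested.

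**Figure D4:**
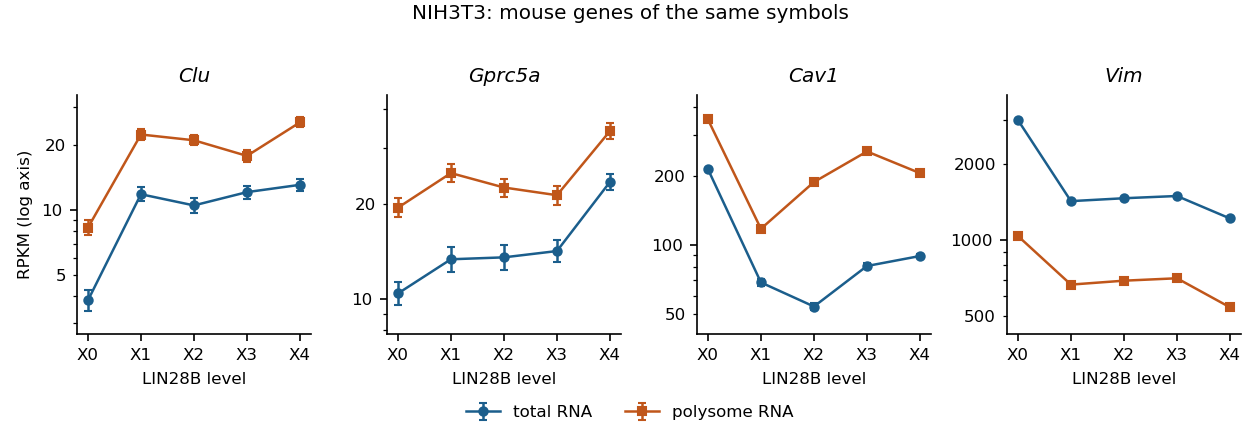
RPKM (log axis) of Clu, Gprc5a, Cav1 and Vim in NIH3T3 total RNA (blue circles) and polysome RNA (orange squares) at levels X0 to X4, with bars for the 95% counting interval of each single library. X0 is the lowest library for Clu (3.82 RPKM in total RNA) and the highest for Cav1 (214) and Vim (2994), in both fractions.

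None of these mouse slopes passed the test. In total RNA limma called 0 of 10348 genes (1136 at an unadjusted p under 0.05, and 0 with edgeR), and the slopes were 0.33 for Clu (SE 0.12, adjusted p = 0.428), 0.24 for Gprc5a (SE 0.06, adjusted p = 0.371), −0.23 for Cav1 (SE 0.17, adjusted p = 0.604) and −0.25 for Vim (SE 0.08, adjusted p = 0.405). On polysomes limma called 0 of 11158 genes (1020 at an unadjusted p under 0.05, and 0 with edgeR), with slopes of 0.28 for Clu (SE 0.11, adjusted p = 0.523), 0.14 for Gprc5a (SE 0.07, adjusted p = 0.573), −0.04 for Cav1 (SE 0.13, adjusted p = 0.924) and −0.18 for Vim (SE 0.06, adjusted p = 0.516). The share of genes called was 0% in both. Without the X0 library the Cav1 slope turned positive, to 0.17 in total RNA and 0.29 on polysomes. The Clu slope then was 0.06 in total RNA and 0.03 on polysomes, and the Vim slope −0.07 and −0.09. Without the X4 library the Gprc5a slope was 0.13 in total RNA and 0.02 on polysomes.

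Setting X1 to X4 together against X0 in NIH3T3 called 3 of the 4 mouse genes tested in total RNA. Clu was higher by 1.52 log2 units (limma adjusted p = 0.00315), Cav1 was lower by that contrast at −1.57 (adjusted p = 0.0126) and Vim was lower at −1.10 (adjusted p = 0.00637), where 11.5% of genes were called up and 10.2% down. On polysomes the same contrast called Clu alone of the 4, at 1.33 (limma adjusted p = 0.0188), with 5.31% of genes called, 2.81% up and 2.5% down. Each of these contrasts rests on the single X0 library. The mouse gene Lin28b had 1 total RNA read each at X0, X1 and X2, 9 at X3 and 42 at X4. The sources used here do not say whether reads of the transgene count towards it, so the order of the lower levels was not checked in NIH3T3. The table holds all 6 fibroblast markers asked for, with Col1a1 at 159 to 448 RPKM and Postn below 0.1 RPKM.

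The 2 lines were set against each other by the difference of their polysome slopes, HEK293A minus NIH3T3, over 8695 shared symbols. The HEK293A side comes from the same levels as the total RNA that chose the members, so the difference is not independent of the choice. CLU differed by −0.96 per level (SE 0.13, limma adjusted p = 0.00700) and GPRC5A by −0.60 (SE 0.12, adjusted p = 0.0102), with a negative slope in HEK293A and a positive one, not called by itself, in NIH3T3 for each. VIM differed by −0.22 (SE 0.08, adjusted p = 0.0589) and CAV1 by −0.13 (SE 0.16, adjusted p = 0.539), and neither passed. No difference is given for TNNT1, since its mouse gene was near 0 and the difference would restate the HEK293A slope. Of all genes 23.4% were called, 19.1% with a lower slope in HEK293A than in NIH3T3 and 4.32% with a higher one, with a median difference of −0.07, and centring gave 920 higher and 665 lower in place of 376 and 1659.

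Single libraries bear on this comparison. Without HEK293A X4, limma called 0 genes (1903 at an unadjusted p under 0.05), with an adjusted p of 0.111 for CLU and for GPRC5A. GPRC5A also missed the threshold without HEK293A X0 (adjusted p = 0.0769) and without NIH3T3 X4 (adjusted p = 0.0574). Without NIH3T3 X0 the difference for CLU was −0.71 (adjusted p = 0.0260). CAV1 (−0.46, adjusted p = 0.0297) and VIM (−0.31, adjusted p = 0.0348) then passed as well, and VIM passed without HEK293A X1 (adjusted p = 0.0443).

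**Figure D5:**
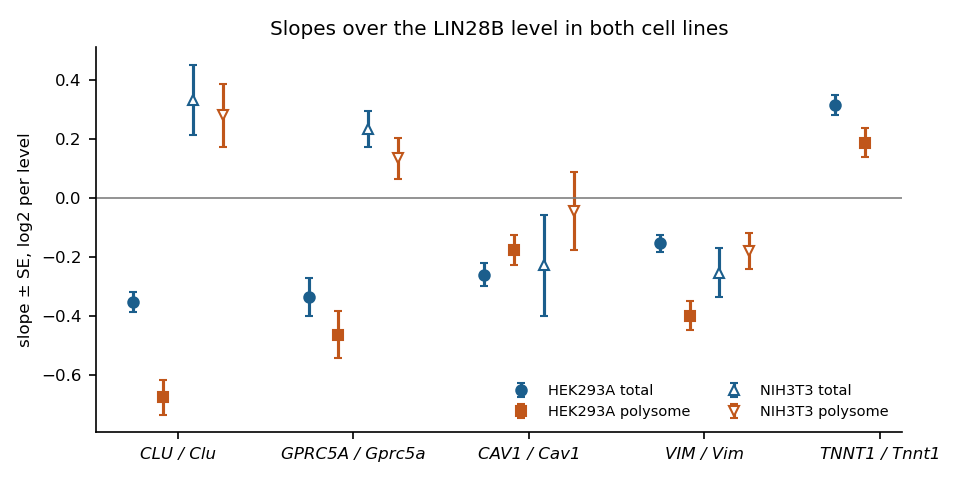
Slope per LIN28B level, in log2(RPKM + 0.5) with its SE as bars, for the 5 genes in HEK293A (filled) and NIH3T3 (open), in total RNA (blue) and polysome RNA (orange). CLU and GPRC5A lie below 0 in HEK293A and above 0 in NIH3T3, and Tnnt1 has no NIH3T3 point because it was near 0.

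Genes of the same cell structures or pathways as the members were followed on HEK293A polysomes, with the members left out. The counts are to be read against the 39.3% of all genes that were called down and the 21.7% called up there, and against 0.758% down and 1.48% up in total RNA. The total RNA calls over all genes hang on single libraries, with 254 called from all libraries, 3 without X0 and 544 without X4. A list is described by its count and median only and was not tested as a list. The lists were chosen with earlier results of these data known. The list counts and medians are for libraries without centring, which moved the polysome calls over all genes to 3037 down and 3116 up. Of 6 caveola genes measured 5 fell and none rose, among them EHD4 (−0.34), PACSIN3 (−0.34), PACSIN2 (−0.28) and EHD1 (−0.30), which shape and tether membrane. The median of the 6 was −0.32, against −0.07 for all genes. In total RNA, however, none of 7 caveola genes passed, and the lowest p was that of CAV2, the partner of caveolin-1, at −0.15 (limma adjusted p = 0.0597). CAV1 had the reverse pattern, with the steeper slope in total RNA.

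Of 10 intermediate filament and linker genes 6 fell on polysomes and none rose, beside 39.3% of all genes down and 21.7% up, with a median of −0.17. They included the nuclear lamins LMNA (−0.38), LMNB2 (−0.36) and LMNB1 (−0.18) and the keratin KRT18 (−0.32). In total RNA 1 of 10 passed, NEFL, a neurofilament gene, at 0.15. Of 11 genes of the GPRC5 family and retinoic acid pathway 6 fell on polysomes and none rose, beside the same shares of all genes, with a median of −0.14. They included DHRS3 (−0.40), a retinal reductase, and the retinoid receptors RARA (−0.31), RARG (−0.32) and RXRA (−0.28). In total RNA CRABP2, which carries retinoic acid in the cell, rose at 0.27 and the other 10 did not pass.

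Of 9 extracellular and small heat shock chaperone genes 7 fell on polysomes and 1 rose, beside 39.3% of all genes down and 21.7% up, with a median of −0.22. HSPB1 (−0.38), the collagen chaperone SERPINH1 (−0.32) and the co-chaperone BAG3 (−0.32) fell, and HSPA8 (0.23), the constitutive HSP70, rose. HSPA8 also rose in total RNA (0.10), and LRP8, a receptor that binds clusterin, fell there (−0.13), as the only 2 of 10 to pass. Among 5 troponin and tropomyosin genes TPM1 rose (0.14), TPM4 fell (−0.15) and 3 did not pass on polysomes, where 61.1% of all genes passed. TPM1, an actin-binding tropomyosin, also rose in total RNA (0.14), the only 1 of 6 to pass.

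Among 11 genes of mesenchymal or epithelial state 4 fell and 2 rose on polysomes, close to the 39.3% and 21.7% of all genes, with a median of −0.08, next to that of all genes. CD44 (−0.26), the integrin ITGA5 (−0.26) and the transcription factor TWIST1 (−0.28) fell, while beta-catenin (CTNNB1, 0.20) rose. In total RNA, where 2.24% of all genes passed, 4 of 13 did, LOX (−0.16) and CD44 (−0.23) down and CTNNB1 (0.13) and SPARC (0.15) up. No list gene passed in NIH3T3, in either fraction, where no gene at all was called.

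The genes whose HEK293A total RNA profile lay closest to that of each member, by the root mean square difference of centred log2 values over the 5 libraries among 7529 genes at 5 RPKM or more, included MALAT1, a nuclear long noncoding RNA, for 3 of the 5. MALAT1 was closest to CLU (0.13), second for GPRC5A (0.15) and for CAV1 (0.056). DDIT4, an inhibitor of mTOR signalling, was closest to GPRC5A (0.13), and INSIG1, a sterol sensor of the endoplasmic reticulum, to CAV1 (0.054). The other genes named by this rule were RP11-674N23.1 (0.14) and DDIT4 (0.15) for CLU, CAV1 (0.16) for GPRC5A and CD44 (0.071) for CAV1.

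VIM lay closest to ZBED3 (0.040) and SCARA3 (0.040), a scavenger receptor gene. TNNT1 lay closest to EEF1A2 (0.095), a tissue-restricted elongation factor, GPX3 (0.10), a secreted glutathione peroxidase, and NR6A1 (0.11), an orphan nuclear receptor. Likeness in total RNA did not fix the level on polysomes. MALAT1 was at 2.27 RPKM on polysomes at X0 and 1.26 at X4, DDIT4 at 11.1 and 2.12, and SCARA3 at 9.24 and 1.78. EEF1A2 was at 48.4 and 43.8 RPKM on polysomes and GPX3 at 15.6 and 14.8. NR6A1, however, was at 2.42 and 4.15, a log2 difference of 0.67 beside 0.77 (1.74-fold) for TNNT1.

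The small RNA libraries held almost nothing of the members, with 0 counts over 8 libraries for CLU, CAV1 and TNNT1, 1 count for VIM and 5 for GPRC5A. The members were not followed further there.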

How the data were processed

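Total and polysome RNA of HEK293A and NIH3T3 cells at 5 LIN28B levels, and of HEK293A X0 cells with let-7a, were analysed. The members and gene lists were chosen with earlier results of these data known. RPKM values were deposited by the authors for these libraries, 1 column per level and fraction. For the 8 small RNA libraries the authors deposited raw counts per gene. Cutadapt, STAR, hg19 and mm10 are named in the submitters' processing notes. The counting tool, its strand setting, the annotation and any pooling of the 2 replicates in the series' design were not given in the sources used here. No gene of the human table is below 1 RPKM in any untransfected total RNA library.

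Whole reads were recovered from RPKM steps (tolerance 0.02 of a read) for 100% of HEK293A genes, 90.7% of NIH3T3 genes above 0 and 99.9% of the let-7a genes that the human table lists. They gave depths, counting intervals and the count test.

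A line over the level rank was fitted to log2(RPKM + 0.5) of genes whose mean reached 1 RPKM with limma 3.58.1 (R 4.3.3), with Benjamini-Hochberg adjustment over all genes and a threshold of 0.05. Such fold changes understate changes of low genes. Groups hold 1 library each, so p-values measure scatter around a line over 5 libraries and not replicates. Slopes were compared between lines by an interaction term. The let-7a libraries were compared without a test. Alternatives were other pseudocounts, filters and scalings, edgeR 4.0.16 on recovered reads, X0 against the other levels, and leaving out each library. The fits were tested on simulated data.

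Named were LIN28B, the members, the 3 genes nearest to each in total RNA profile, and up to 4 genes of smallest p per list that passed, or 1 where none did. A gene that this rule names is not reported here. Motifs were matched to RefSeq windows (GRCh38.p14) by symbol.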

Additional observations from a re-analysis of the deposited data

Results flagged for a closer look

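Polysome RNA slopes of 2 genes over the LIN28B level differed between the 2 cell lines by a test of the difference in slope. Both genes were chosen by HEK293A total RNA from the same levels, so this test is not independent of the choice. For CLU the HEK293A slope minus the NIH3T3 slope was −0.96 per level (limma adjusted p = 0.00700), with CLU highest at X0 in HEK293A and Clu lowest at X0 in NIH3T3. For GPRC5A it was −0.60 per level (limma adjusted p = 0.0102). Of all genes 23.4% were called by this test, 19.1% in the same direction. Without the HEK293A X4 library neither passed, and GPRC5A also missed the threshold without HEK293A X0 or without NIH3T3 X4. Without NIH3T3 X0 the Clu polysome slope in NIH3T3 was 0.03 in place of 0.28.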

How the results depend on the processing

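On HEK293A polysomes limma called 6368 genes and 5 members, 0 of each with X0 against X1 to X4 (946 genes and 3 members at an unadjusted p under 0.05), and 0 to 7164 genes and 0 to 5 members when 1 library was left out. The members' adjusted p lay between 0.0523 and 0.195 without X0 and between 0.0795 and 0.127 without X4. GPRC5A is not tested under a filter at a mean of 5 RPKM. In NIH3T3, X0 against the other levels gave 2241 genes and 3 members in total RNA and 592 genes and 1 member on polysomes. Centring gave 3 genes on NIH3T3 polysomes. Leaving out 1 library gave 0 to 19 genes in total RNA and 0 to 17 on polysomes, with 0 members. The Cav1 slope ran from −0.45 to 0.17 in total RNA and from −0.17 to 0.29 on polysomes with 1 library left out, and it reversed without X0 (adjusted p = 0.296 and 0.718). In HEK293A total RNA the 254 calls became 117 with a filter at 5 RPKM, 169 after centring, 3 for X0 against the other levels, and 3 to 544 without 1 library. The difference between lines was called for 0 to 2655 genes and 0 to 4 members without 1 library, against 2035 genes and 2 members. For let-7a on polysomes the filter at 5 RPKM left 2928 genes past 1.5-fold in place of 4596, with fewer genes compared. Other causes were not tested. No paired analysis was possible because each group holds 1 library and groups share only 1 replicate number, so that no replicate block can be fitted. The occupancy values, which pair the fractions of a level, are given without a test. Counting error limits mainly GPRC5A and TNNT1 on polysomes and mouse Tnnt1, and the absence of replicates limits every comparison.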
